A study of Homo sapiens with 6 samples.

Results

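Du145 cells that had lost part of their TSC2 transcript and that are labelled as adapted after the knockdown were compared with control Du145 cells, on 4 of the 6 arrays of the series. Du145 is an established human prostate carcinoma line of epithelial origin. The groups were set by label: 2 arrays of adapted cells (shTSC2-adapted) and 2 arrays of control cells, set against each other across 18417 genes. The other 2 arrays hold TSC2 knockdown cells that are not labelled adapted (shTSC2), and they serve here for the shared estimate of the spread and as a point of reference. All cells were grown at 37 °C, 5% CO2 and 1% O2 in medium with high glucose and 10% serum, with 24 h of hypoxia before RNA was taken, so the controls were hypoxic too. Both knockdown groups had been infected with a lentivirus directed at TSC2. The labels do not say how cells were adapted or for how long, whether control cells received a virus, which hairpin was used, or whether arrays of a group came from separate cultures. P-values thus reflect only how far arrays of a group differ, a spread that may be technical, and the effect of lower TSC2 cannot be told apart from effects of infection, of the hairpin or of the adaptation.

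TSC2 encodes tuberin, which with TSC1 forms a complex that switches off the small GTPase RHEB. RHEB activates mTORC1, the kinase complex that links growth factors, amino acids and energy supply to protein, lipid and nucleotide synthesis. Amino acids reach mTORC1 by another route, through the Rag GTPases on the lysosome. Under low oxygen, mTORC1 is normally restrained through TSC2 by the stress protein DDIT4, and loss of TSC2 function removes that brake.

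Values are log2 intensities, and a change is the difference of group means in log2 units with its standard error (SE, n = 2 arrays per group). A gene is said to have risen or fallen where the adjusted p was under 0.05 in limma, a linear model with a moderated spread, adjusted by Benjamini-Hochberg over all 18417 genes.

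The labels were checked on the targeted gene and on cell type markers. TSC2 had log2 intensities of 7.52 and 7.59 on the control arrays and 6.54 and 6.48 on the adapted arrays, with no overlap. It fell by 1.04 (SE 0.10, limma adjusted p = 0.0241), to 48.5% of the control level (95% interval 41.4% to 56.7%). Without 1 of the compared arrays the change was -1.08 to -1.01 and the adjusted p 0.0973 to 0.386. On the shTSC2 arrays TSC2 read 6.67 and 6.55, and the adapted arrays differed from these by -0.10 (95% interval -0.33 to 0.13, adjusted p = 0.564).

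In adapted cells 48 genes passed against control, 0.261% of those tested: 10 were higher (0.0543%) and 38 were lower (0.206%). For scale, 3833 genes passed in shTSC2 versus control (20.8%; 6.87% higher, 13.9% lower). For each of the 48 genes both adapted arrays lay on one side of both control arrays, which was also so for 21.8% of all genes in the upward direction and 24.1% in the downward direction. Adjusted p-values of these genes ran from 0.019 to 0.0496, SEs from 0.09 to 0.24, and 26 of the genes differed by 2-fold or more (5 higher, 21 lower). The median change over all genes was -0.005, and at an adjusted p under 0.10 the count was 269 genes, 78 higher (0.424%) and 191 lower (1.04%).

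The calls depended on having both arrays of each group. With limma, 0 genes passed without control 1, control 2, adapted 1 or adapted 2, where 1301, 1081, 1705 and 2262 genes had an unadjusted p under 0.05 against 2317 with all arrays. Without either shTSC2 array, or with only the 4 arrays compared, 248 genes passed, the 48 among them. All 48 kept their direction in every setting in which they were tested. Leaving out an array could not turn it, since their adapted and control arrays did not overlap. Arrays of 1 group correlated across genes at Pearson r = 0.997 in control and 0.993 in adapted cells, against 0.990 to 0.993 between control and adapted arrays. The 2 adapted arrays differed from each other by over 0.5 for 574 genes against 68 for the 2 control arrays. The 2 shTSC2 arrays, which enter the shared spread, correlated at 0.990 and differed by over 0.5 for 1159 genes.

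**Figure D1:**
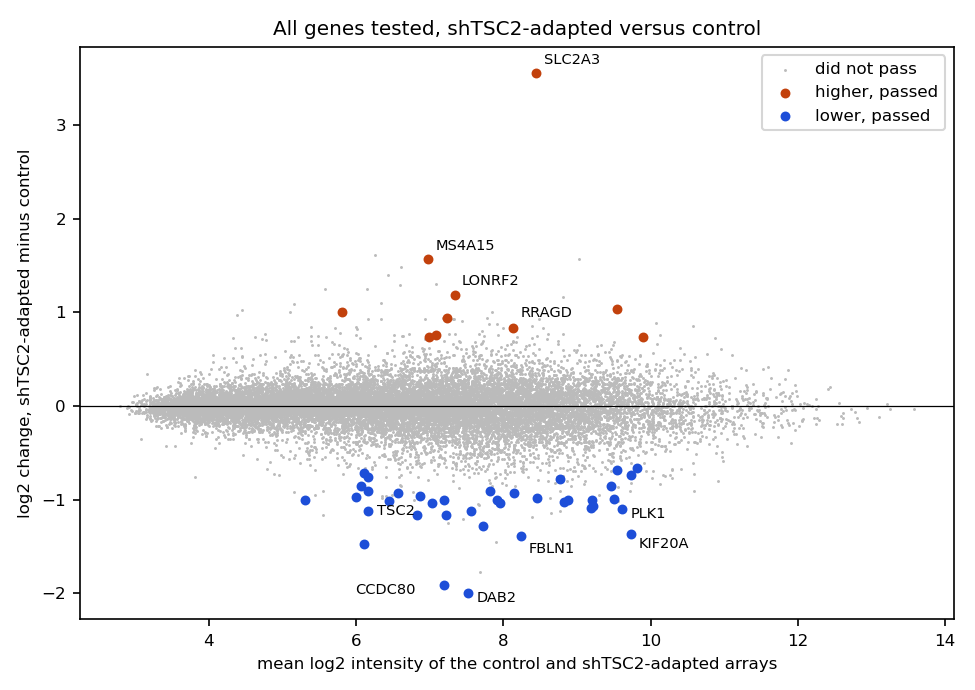
Change of each of the 18417 genes in log2 units (vertical axis, shTSC2-adapted minus control) against its mean log2 intensity over the 4 arrays (horizontal axis), with the 10 genes that rose in red and the 38 that fell in blue. SLC2A3 stood apart at 3.56, while the other genes that passed lay between -2.0 and 1.57.

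Keratins of simple epithelia were among the epithelial markers at high level: KRT8 read 11.24 and 11.22 in control and 11.34 and 11.46 in adapted cells, and KRT18 read 11.31 and 11.23 against 11.50 and 11.49. KLK3, the prostate-specific antigen and a target of the androgen receptor, read 5.01 to 5.29 over the 6 arrays, below the median of 5.91 over all probe sets. None of the 7 marker lists had a member that passed. The summed intensity of the 9 epithelial markers was 6988 to 7391 in control and 8206 to 8348 in adapted cells. For markers of other cells, the sum of 14 lymphoid and myeloid markers was 707 to 711 in control and 744 to 764 in adapted cells, and that of 8 markers of the embryonic kidney line used to package virus was 507 to 536 against 612 to 840, with the highest values for INA (1.25, adjusted p = 0.273) and NEFM (0.93, 0.118). Of the 10 fibroblast markers 5 (DCN, LUM, PDGFRA, POSTN, FAP) read under 4.33, the lower quartile over all probe sets, on each of the 6 arrays, as did PTPRC, MS4A1, LYZ and AIF1 of the lymphoid and myeloid list. The part of these differences in the results was not tested.

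In the list of TSC and mTOR complex genes, TSC2 was the 1 member of 24 that passed (0.261% of all genes), and the median change was -0.01. TSC1, the partner of TSC2, read 7.64 and 7.80 in control and 7.85 and 7.68 in adapted cells (0.04, adjusted p = 0.930). MTOR, the kinase itself, stood at 0.29 (0.364), and RHEB at -0.27 (0.414), with -0.24 on its other probe set. DDIT4 read 9.0 and 9.01 in control and 9.88 and 9.25 in adapted cells. Its change of 0.56 (SE 0.19, adjusted p = 0.291) did not pass in limma. Set against shTSC2 (7.88 and 7.68), DDIT4 was higher in adapted cells by 1.78 (adjusted p = 0.00288). Of 18 genes of translation control downstream of mTORC1 0 passed. Their lowest member was EIF4EBP2, a repressor of cap-dependent translation, with 10.07 and 10.06 in control and 8.84 and 9.25 in adapted cells (-1.02, adjusted p = 0.0636). Of 19 genes of insulin receptor and FOXO feedback 0 passed, and IGF1R, the IGF receptor, was the lowest (-0.73, adjusted p = 0.0713).

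The largest rise was in SLC2A3, a high-affinity glucose transporter of the plasma membrane. It read 6.54 and 6.81 in control, 10.36 and 10.10 in adapted and 8.88 and 9.67 in shTSC2 cells, so the 3 groups did not overlap. SLC2A3 rose by 3.56 in adapted cells (SE 0.24, limma adjusted p = 0.019), 11.8-fold, and it was higher than in shTSC2 by 0.96 (95% interval 0.38 to 1.53, adjusted p = 0.0441). Leaving out 1 of the compared arrays gave a change of 3.42 to 3.69. SLC2A14 is a near-identical copy of this gene, so signal may be shared between their probe sets: it read 7.23 and 7.44 in control and 8.46 and 8.23 in adapted cells (1.01, adjusted p = 0.0971). The other 23 genes of glucose transport and glycolysis did not pass, and the list's median was -0.02. SLC2A1, the widespread glucose transporter and a hypoxia target, read 10.90 and 10.84 in control and 10.46 and 10.27 in adapted cells (-0.51, adjusted p = 0.102). The glycolytic enzymes HK2 and PGK1 stood at 0.10 and 0.02 (0.881 and 0.979). Of 31 genes of the hypoxia-inducible factor pathway 0 passed, with a median of -0.08 and values from -0.67 (LOX, a collagen cross-linking enzyme) to 0.48 (EGLN3, an oxygen-sensing prolyl hydroxylase). Of the 31, 22 were below 0 (50.5% of all genes) and 13 had both adapted arrays below both control arrays (24.1% of all genes).

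RRAGD, a Rag GTPase that helps bring mTORC1 to the lysosome when amino acids are present, also rose. Its control arrays read 7.66 and 7.78, its adapted arrays 8.46 and 8.64 and its shTSC2 arrays 7.88 and 7.82. The change was 0.83 (SE 0.11, limma adjusted p = 0.0384), and adapted cells lay above shTSC2 by 0.70 (adjusted p = 0.00758), whereas shTSC2 stood 0.13 above control (adjusted p = 0.441). It was the 1 member of 24 on the Rag and amino acid sensing list that passed (0.261% of all genes). Its partners RRAGA (-0.07) and RRAGC (-0.08) and the GTPase regulator FLCN (0.01) had adjusted p-values of 0.924, 0.900 and 0.987, and the median of the list was -0.04.

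Among the other genes that rose were surface and signalling proteins on none of the pathway lists. MS4A15, a membrane protein of the MS4A family, read 6.27 and 6.11 in control and 7.44 and 8.09 in adapted cells, a rise of 1.57 (SE 0.21, limma adjusted p = 0.0432). MUC1, the transmembrane mucin of the apical epithelial surface, read 8.89 and 9.17 against 10.10 and 10.05 (1.04, SE 0.14, 0.0452). KLB, the co-receptor of endocrine fibroblast growth factors, read 5.24 and 5.39 against 6.44 and 6.19 (1.00, SE 0.12, 0.0341). Its control arrays lay below the median of 5.91 over all probe sets. For MS4A15, MUC1 and KLB the groups did not overlap, although the 2 adapted arrays of MS4A15 lay farther apart than its control arrays. NPAS2, a transcription factor of the circadian clock, rose by 0.76 (0.0324) and VXN, a gene named for roles in neural differentiation, by 0.94 (0.0265). ST3GAL4, a sialyltransferase, rose by 0.74 (0.0384), as did UTP4, a nucleolar protein of ribosome assembly, by 0.74 (0.0341). LONRF2, a RING finger ubiquitin ligase, read 6.82 and 6.68 in control and 7.85 and 8.02 in adapted cells, a rise of 1.19 (0.0341). Next by p among genes that stood higher, without passing, were FASN, fatty acid synthase (0.77, adjusted p = 0.0508), PCYT2 of phosphatidylethanolamine synthesis (0.73, 0.0581), GCH1 of tetrahydrobiopterin synthesis (0.88, 0.0636) and VAMP8, a vesicle fusion protein (0.72, 0.0676).

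The adapted cells were also tested directly against shTSC2. This test uses the same adapted arrays as the calls, and 12.5% of all genes passed it (9.25% higher, 3.24% lower in adapted cells). For 7 of the 10 genes, SLC2A3, MS4A15, MUC1, KLB, VXN, RRAGD and NPAS2, the adapted cells lay farther above control than shTSC2 did, by 0.65 to 0.96. KLB, VXN, RRAGD and NPAS2 stood within 0.11 to 0.16 of control in shTSC2, with adjusted p-values of 0.319 to 0.526. No difference from shTSC2 passed for LONRF2 (-0.05, 95% interval -0.38 to 0.28), UTP4 (-0.03, -0.24 to 0.18) and ST3GAL4 (0.22, -0.002 to 0.44).

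**Figure D2:**
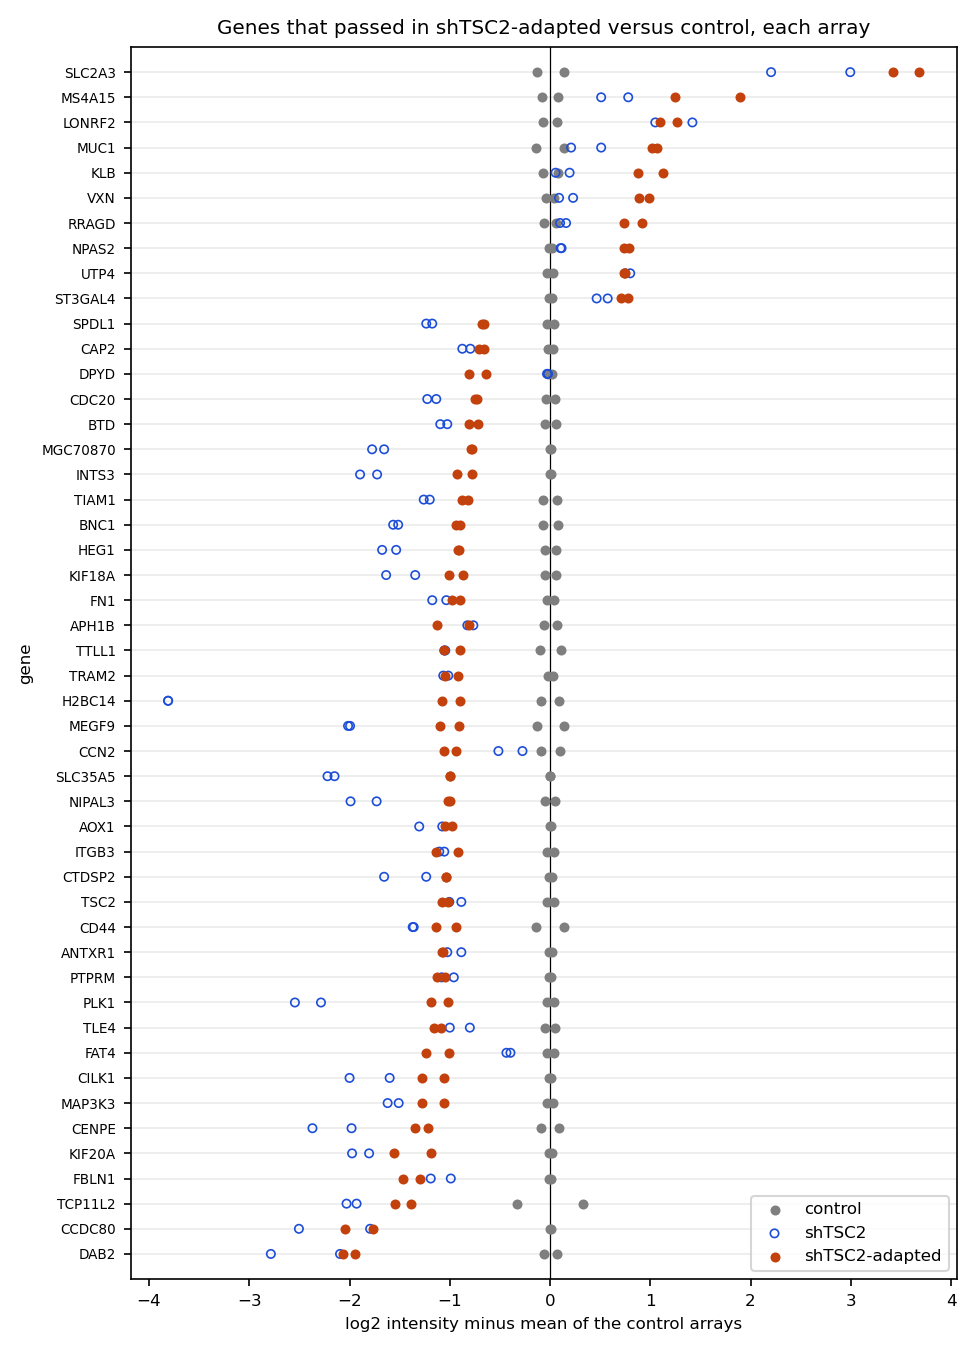
Log2 intensity of the 48 genes that passed on each array, as the difference from the mean of the control arrays (horizontal axis, log2 units), with control in grey, shTSC2 as open blue circles and shTSC2-adapted in red. Adapted and control arrays do not overlap for any of the 48 genes, and H2BC14, PLK1 and SLC35A5 lie far lower in shTSC2 than in adapted cells.

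Genes of mitosis formed the group with the most falls. PLK1, a kinase of mitotic entry and spindle assembly, KIF20A, a kinesin of cytokinesis, CENPE and KIF18A, kinesins that align chromosomes, and CDC20, an activator of the anaphase-promoting complex, fell, 5 of the 44 members tested. None rose and 39 did not pass, while 0.206% of all genes fell and 0.0543% rose. In RNA from a whole culture, fewer cells in mitosis and less of these RNAs per such cell cannot be told apart.

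The promoters of these genes are shown because many mitotic genes are known to be controlled in common through the cell-cycle homology region, or CHR, a short element read by the DREAM and MuvB complexes. The sequences are the 250 bases before the start of transcription on the gene's strand, from RefSeq on GRCh38.p14, in lower case with each CHR (TTTGAA, or TTCAAA where it lies on the opposite strand) in capitals. They are shown for the called genes PLK1 at chr16:23678639-23678888 (plus strand), CDC20 at chr1:43358731-43358980 (plus), KIF18A at chr11:28108157-28108406 (minus) and SPDL1 at chr5:169583523-169583772 (plus). SPDL1, a dynein adaptor at kinetochores, fell too but was not on the list.
PLK1: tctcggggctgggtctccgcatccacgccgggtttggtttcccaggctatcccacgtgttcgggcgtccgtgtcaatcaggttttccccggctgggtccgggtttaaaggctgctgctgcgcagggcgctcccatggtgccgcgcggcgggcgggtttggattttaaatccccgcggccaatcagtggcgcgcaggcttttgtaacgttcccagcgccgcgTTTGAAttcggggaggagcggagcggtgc
CDC20: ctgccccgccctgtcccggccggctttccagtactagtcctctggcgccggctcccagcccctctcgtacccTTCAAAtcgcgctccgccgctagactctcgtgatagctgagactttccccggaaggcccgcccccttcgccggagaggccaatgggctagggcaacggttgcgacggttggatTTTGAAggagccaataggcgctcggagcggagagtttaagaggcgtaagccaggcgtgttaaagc
KIF18A: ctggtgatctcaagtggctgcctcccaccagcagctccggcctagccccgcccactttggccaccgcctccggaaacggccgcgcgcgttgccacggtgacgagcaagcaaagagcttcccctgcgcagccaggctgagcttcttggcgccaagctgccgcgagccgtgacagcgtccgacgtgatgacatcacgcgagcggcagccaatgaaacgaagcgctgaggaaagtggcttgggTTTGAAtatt
SPDL1: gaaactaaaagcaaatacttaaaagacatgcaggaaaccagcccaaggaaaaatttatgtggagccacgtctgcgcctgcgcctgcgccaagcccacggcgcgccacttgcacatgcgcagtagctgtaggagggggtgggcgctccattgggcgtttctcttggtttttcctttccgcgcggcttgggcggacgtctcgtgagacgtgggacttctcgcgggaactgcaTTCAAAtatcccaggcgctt
The first base of the CHR lies 29 bases before the start in PLK1, 10 in KIF18A and 20 in SPDL1, and CDC20 has 2, at 178 and 65 bases. SPDL1 has a second promoter in the table, at chr5:169583830-169584079, which holds no such letters. The promoters of CENPE and KIF20A in the table hold no such letters. The sequences printed are thus those of mitotic genes that hold them. Among other called genes, the letters were in a promoter of ANTXR1, TLE4, NIPAL3 and TCP11L2, which fell, and of KLB, which rose. Of 48 called genes 39 had a promoter entry, and SLC2A3, RRAGD, MS4A15, VXN, FAT4, ITGB3, APH1B, CILK1 and MGC70870 are named only.

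Searched on both strands, TTTGAA was in 13.3% of all 35116 promoters of the table and in 10.9% of the 20109 promoters of genes tested. It was in 50% of the 46 promoters of genes on the mitosis list, 20% of the 45 promoters of genes that fell and 11.1% of the 9 promoters of genes that rose. Some genes have several promoters in the table, so promoters are not independent. The hypoxia response core ACGTG, which also matches inside the E-box CACGTG, was in 24.4% of promoters of genes that fell, 22.2% of those of genes that rose, 20.3% of those of genes tested and 18.5% of all. In the same order, the E-box was in 13.3%, 22.2%, 7.38% and 6.34%, and the NF-kB motif in 13.3%, 0%, 5.49% and 5.07%. The AP-1 letters TGANTCA were in 0 promoters of called genes, 5.31% of those of genes tested and 6.57% of all, and the C/EBP-ATF letters TGATGNAA were in 4.44%, 0%, 2.31% and 3.14%. On the mitosis list ACGTG was in 32.6% of promoters, the E-box in 10.9%, the C/EBP-ATF letters in 4.35%, NF-kB in 2.17% and AP-1 in 0%. Of the 5 promoters of list members that fell, TTTGAA was in 3, ACGTG also in 3, the E-box in 2 and each other motif in 0. The printed promoters of PLK1, KIF18A and SPDL1 hold ACGTG too, which is not put in capitals. All these matches describe letters in the window and were not tested.

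On the arrays, PLK1 read 10.20 and 10.13 in control, 8.98 and 9.15 in adapted and 7.88 and 7.62 in shTSC2 cells. KIF20A read 10.41 and 10.44, then 8.87 and 9.24, then 8.62 and 8.45. CENPE read 8.28 and 8.46, then 7.15 and 7.02, then 6.39 and 6.0. In these 3 genes the adapted arrays lay below both control arrays and above both shTSC2 arrays. PLK1 fell by 1.10 (SE 0.12, limma adjusted p = 0.0277), KIF20A by 1.37 (SE 0.14, 0.0261) and CENPE by 1.28 (SE 0.15, 0.0289). KIF18A read 8.56 and 8.67 in control and 7.75 and 7.61 in adapted cells (-0.93, SE 0.12, 0.0454). CDC20 read 10.14 and 10.05 against 9.37 and 9.35 (-0.74, SE 0.09, 0.0384), and SPDL1 10.12 and 10.19 against 9.50 and 9.48 (-0.66, SE 0.09, 0.0496), the smallest fall that passed.

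Across the whole mitosis list the change was below 0 for 44 of 44 genes, against 50.5% of all genes. Both adapted arrays lay below both control arrays for 44 of 44, against 24.1%. The list was chosen with earlier results of these data known. Its members were read on the same arrays, and many mitotic genes are known to be controlled in common, so the 44 are not independent. Values ran from -1.37 (KIF20A) to -0.15 (NCAPG, a condensin subunit), with a median of -0.52 beside -0.005 for all genes. At an adjusted p under 0.10, 16 members were lower, against 1.04% of all genes. Cyclin B1 (CCNB1), the cyclin of mitotic entry, read 11.04 and 11.06 in control and 10.03 and 10.25 in adapted cells (-0.91, adjusted p = 0.0508). AURKA, a spindle pole kinase, stood at -0.82 (0.0542). CDK1, the kinase partner of cyclin B1, stood at -0.47 (0.142), MKI67, a proliferation marker, at -0.38 (0.275), and TOP2A, a DNA topoisomerase, at -0.61 (0.301).

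Against shTSC2 the mitotic genes were higher in adapted cells. Of the 44 members 37 passed in that direction (9.25% of all genes) and 7 did not pass, with a median difference of 0.79. The median of the list relative to control was -0.51 and -0.53 on the adapted arrays and -1.41 and -1.31 on the shTSC2 arrays. Differences of single genes from shTSC2 were 1.31 for PLK1 (adjusted p = 0.00201), 0.89 for CENPE (0.00999), 0.56 for KIF18A (0.0292), 0.54 for SPDL1 (0.0111) and 0.44 for CDC20 (0.0242), and 0.52 for KIF20A, which did not pass (0.0505).

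For genes of DNA replication and entry into S phase no change passed. Of the 48 tested 0 passed in limma and 2 were higher at an adjusted p under 0.10 (0.424% of all genes). The median was 0.17 and 34 of 48 values were above 0 (49% of all genes). CDC25A, a phosphatase that activates S-phase kinases, was the highest, with 6.95 and 6.78 in control and 7.62 and 7.98 in adapted cells (0.93, adjusted p = 0.0818). MCM2, a subunit of the replicative helicase, was the lowest (-0.26, 0.562).

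Replication-dependent histones, which package newly made DNA, had 1 call among 41 genes, where 0.261% of all genes passed. H2BC14, an H2B gene, read 10.09 and 9.91 in control, 9.10 and 8.92 in adapted and 6.19 and 6.19 in shTSC2 cells. It fell by 0.99 (SE 0.11, limma adjusted p = 0.0287) and lay 2.82 above shTSC2 (adjusted p = 0.000322), the largest such difference among the 48 genes. Of the 41 genes 39 were below 0 (50.5% of all genes) and 25 had both adapted arrays below both control arrays (24.1% of all genes), with a median of -0.32. The 2 adapted arrays differed in this group: their medians relative to control were -0.13 and -0.50, so the list's level rests on which array is read. H3C11 shows the spread, with 11.18 and 11.30 in control and 11.12 and 10.28 in adapted cells (-0.54, adjusted p = 0.619). Histone genes are near-identical copies of each other, so their probe sets may share signal. Against shTSC2, 20 of the 41 were higher in adapted cells (9.25% of all genes) and 1 was lower (3.24%).

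**Figure D3:**
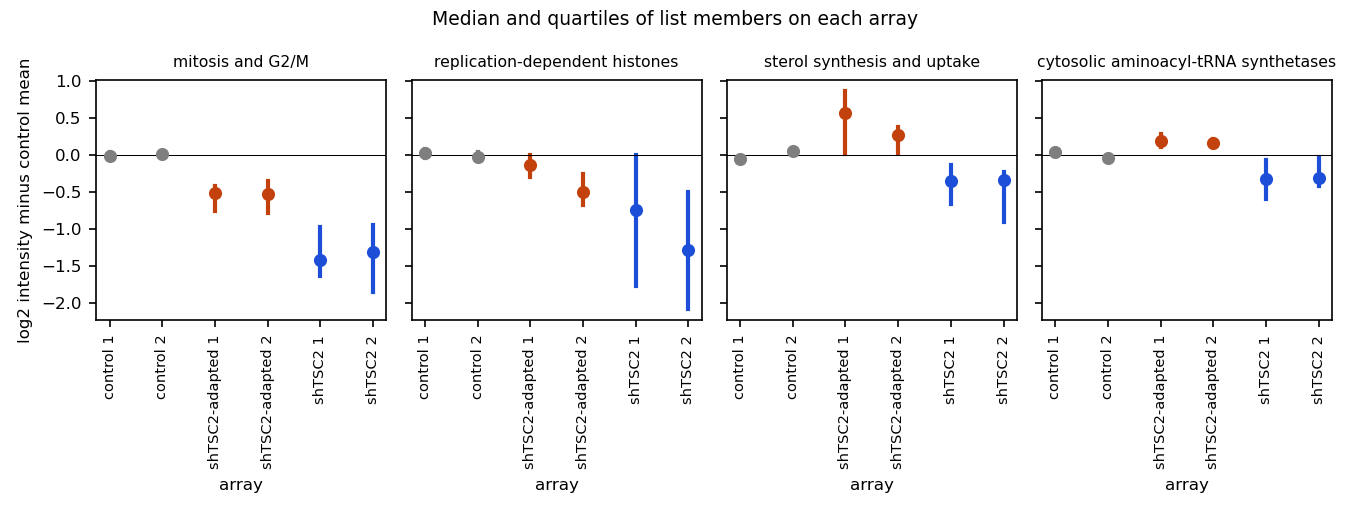
Median (point) and quartiles (bar) of the members of 4 gene lists on each array, as log2 intensity minus the mean of the control arrays, with control in grey, shTSC2-adapted in red and shTSC2 in blue. The mitosis list is lower on both adapted arrays (-0.51 and -0.53) and lower still in shTSC2, histones differ between the adapted arrays (-0.13 and -0.50), and the medians of the sterol and tRNA synthetase lists, of which no member passed against control, lie above 0 in adapted cells and below 0 in shTSC2.

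Genes of the extracellular matrix and its receptors supplied further falls. Of 52 tested members of the matrix, integrin and protease list 3 fell (0.206% of all genes), 0 rose and 49 did not pass. The median was -0.12, and 39 of 52 values were below 0 (50.5% of all genes). Both adapted arrays lay below both control arrays for 24 (24.1% of all genes), and 7 were lower at an adjusted p under 0.10 (1.04% of all genes). FN1, fibronectin, read 7.01 and 7.08 in control and 6.07 and 6.15 in adapted cells, a fall of 0.93 (SE 0.10, limma adjusted p = 0.0265). ITGB3, an integrin beta chain that binds fibronectin and vitronectin, read 6.93 and 7.0 against 5.83 and 6.05 (-1.02, SE 0.11, 0.0265). CD44, the hyaluronan receptor, read 8.61 and 8.33 against 7.53 and 7.33 (-1.04, SE 0.13, 0.0341). For each of the 3 the adapted arrays lay below both control arrays, and no difference from shTSC2 passed (0.17 for FN1, 0.05 for ITGB3 and 0.32 for CD44). TGFBI, a secreted matrix protein induced by TGF-beta, stood at -0.95 (adjusted p = 0.0581). COL4A1, a basement membrane collagen, stood at -1.02 (0.0742) and its partner COL4A2 at -1.06 (0.184), with 8.44 and 7.95 in control and 6.72 and 7.55 in adapted cells. ITGA5, the alpha chain of a fibronectin receptor, stood at 0.30 (0.710).

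Other falls were of genes on none of the lists, with varied roles. DAB2, a clathrin adaptor that takes part in integrin uptake, had the largest fall of all: it read 8.46 and 8.59 in control, 6.58 and 6.46 in adapted and 6.43 and 5.74 in shTSC2 cells, a change of -2.0 (SE 0.21, limma adjusted p = 0.0265). CCDC80, a secreted matrix-associated protein, read 8.14 and 8.15 against 6.10 and 6.38 (-1.91, SE 0.22, 0.0289). FBLN1, the matrix glycoprotein fibulin, read 8.93 and 8.95 against 7.47 and 7.64 (-1.39, SE 0.11, 0.0241). All 3 stood clear of control by more than their spread, and none differed from shTSC2 beyond the threshold (0.43, 0.24 and -0.29). ANTXR1, a collagen-binding receptor also used by anthrax toxin, fell by 1.07 and PTPRM, a receptor tyrosine phosphatase of cell contacts, by 1.09, both with an adjusted p of 0.0241. HEG1, a mucin-like membrane receptor, fell by 0.91 (0.0277).

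The Hippo-YAP list holds the kinases of a contact- and tension-sensing pathway and the targets of its effector YAP1. Of its 28 genes 1 fell, against 0.206% of all genes. CCN2, a matricellular growth factor and YAP target, read 9.80 and 9.61 in control, 8.65 and 8.77 in adapted and 9.43 and 9.19 in shTSC2 cells. It fell by 1.00 (SE 0.12, limma adjusted p = 0.0349) and lay 0.60 below shTSC2 (adjusted p = 0.0218). Other YAP targets had other values: ANKRD1 stood at 0.38 (0.268), CCN1 at 0.19 (0.846) and AXL, a receptor tyrosine kinase, at -0.61 (0.0676). The median was -0.09 and YAP1 itself stood at -0.39 (0.185).

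CCN2 was 1 of 3 falls that went farther in adapted than in shTSC2 cells, where 3.24% of all genes passed as lower. FAT4, an atypical cadherin, read 6.69 and 6.76 in control, 5.49 and 5.72 in adapted and 6.33 and 6.29 in shTSC2 cells. It fell by 1.12 (limma adjusted p = 0.0241) and lay 0.70 below shTSC2 (-0.70, adjusted p = 0.00792). DPYD, the first enzyme of pyrimidine breakdown, read 6.46 and 6.5, then 5.67 and 5.84, then 6.45 and 6.46. It fell by 0.72 (0.0488), while in shTSC2 it stood at -0.03 (0.893), so the 2 knockdown groups differed by -0.70 (0.00609).

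For 15 falls the adapted cells lay nearer to control than shTSC2 did, by 0.38 to 2.82. Of all genes, 9.25% passed as higher in adapted than in shTSC2 cells. Beside the mitotic genes PLK1, CENPE, KIF18A, CDC20 and SPDL1 and the histone H2BC14 these were INTS3, a subunit of the Integrator complex that processes small nuclear RNAs, TIAM1, an activator of the GTPase RAC1, BNC1, the zinc finger protein basonuclin, HEG1, CILK1, a kinase of the cilium, SLC35A5, of the nucleotide sugar transporter family, MEGF9, NIPAL3 and the transcribed pseudogene MGC70870. SLC35A5 read 9.38 and 9.38 in control, 8.38 and 8.38 in adapted and 7.23 and 7.16 in shTSC2 cells (-1.0 against control, limma adjusted p = 0.0241, and 1.19 against shTSC2, 0.00111). INTS3 read 9.89 and 9.88, then 8.96 and 9.11, then 8.16 and 7.99. It stood at -0.85 (0.0366), and its other probe set gave -0.70 with an adjusted p of 0.0747 when every probe set was tested.

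For the other 20 falls no difference between adapted and shTSC2 cells passed, which does not show that the groups were alike. TSC2 itself is 1 of them. The differences lay between -0.29 (FBLN1) and 0.52 (KIF20A). Beside the genes named above they include TLE4, a Groucho-type co-repressor (-1.12 against control, limma adjusted p = 0.0241; -0.23 against shTSC2, 95% interval -0.48 to 0.03) and MAP3K3, a kinase of MAP kinase signalling (-1.17, 0.0241; 0.40, 0.14 to 0.65, adjusted p = 0.0587). AOX1, aldehyde oxidase, fell by 1.01, CTDSP2, a small phosphatase, by 1.03, TRAM2, of the endoplasmic reticulum translocon, by 0.98, TTLL1, of tubulin polyglutamylation, by 0.97 and APH1B, of gamma-secretase, by 0.96. BTD, which recycles biotin, fell by 0.76 and CAP2, an actin regulator, by 0.68. TCP11L2 fell by 1.47 (0.0477), and its control arrays, 6.52 and 7.18, lay farther apart than its adapted arrays, 5.46 and 5.30.

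Among genes of epithelial and mesenchymal state none passed. CDH1, E-cadherin, read 5.67 and 5.80 in control, 7.54 and 6.73 in adapted and 5.65 and 5.54 in shTSC2 cells. Its change against control was 1.40 (SE 0.23, limma adjusted p = 0.068), and against shTSC2 CDH1 was higher by 1.54 (0.00756). CLDN7, a tight junction claudin, stood at 0.76 (0.068), while DSC3, a desmosomal cadherin, stood at -1.14 (0.199) and VIM, vimentin, at -0.41 (0.219). The median over the 42 genes of that list was 0.04. FSTL1, a secreted follistatin-like protein, was the lowest of 33 TGF-beta and BMP genes, of which 0 passed: it read 8.63 and 8.52 in control and 6.69 and 6.92 in adapted cells (-1.77, 0.068).

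In metabolism no list other than glycolysis had a gene that passed. Sterol synthesis, the cholesterol pathway driven by SREBP factors, had 0 calls among 23 genes but a median of 0.41, with both adapted arrays above both control arrays in 15 of 23 (21.8% of all genes). HMGCS1, an early enzyme of this pathway, read 10.05 and 10.25 in control, 11.37 and 10.62 in adapted and 9.0 and 8.81 in shTSC2 cells (0.85, SE 0.23, limma adjusted p = 0.174). The adapted arrays differed here as well, with list medians of 0.56 and 0.27 above control, against -0.34 and -0.33 in shTSC2. Against shTSC2, 14 of the 23 were higher in adapted cells (9.25% of all genes) and 1 was lower, MYLIP, a ligase that degrades the LDL receptor (-1.03, 0.00631). HMGCS1 differed by 2.09 (0.00288), SQLE, squalene epoxidase, by 1.99 (0.00111) and MSMO1, a sterol oxidase, by 1.55 (0.00236).

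Fatty acid synthesis had 0 calls among 26 genes, a median of 0.14 and 12 genes with both adapted arrays above both control arrays, a pattern that 21.8% of all genes had. ACSS2, which makes acetyl-CoA from acetate, read 8.12 and 8.38 in control and 10.33 and 9.31 in adapted cells (1.57, SE 0.38, limma adjusted p = 0.146), with its 2 adapted arrays farther apart than its control arrays. Against shTSC2, 14 of these 26 were higher (9.25% of all genes) and 0 were lower. Cytosolic aminoacyl-tRNA synthetases, which charge tRNAs for translation, had 0 calls among 19 genes, a median of 0.17, 18 values above 0 (49% of all genes) and 15 genes with that pattern. The list medians on the adapted arrays were 0.19 and 0.16, and 11 of the 19 were higher than in shTSC2. Nuclear-encoded subunits of oxidative phosphorylation had 0 calls among 39 genes, a median of 0.14, 30 values above 0 and 22 genes with that pattern. Ribosome biogenesis had 0 among 30, a median of 0.11, 21 values above 0 and 15 genes with it.

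Inflammatory genes had no call. Of 35 NF-kB and cytokine genes 0 passed and the median was 0.11, with array medians of 0.21 and -0.005. CXCL8, a neutrophil chemokine, read 5.48 and 5.42 in control and 8.01 and 6.12 in adapted cells, a difference of 1.61 (SE 0.53, limma adjusted p = 0.265) that came to 0.67 without adapted 1 and 2.56 without adapted 2. Against shTSC2, 10 of the 35 were lower in adapted cells (3.24% of all genes). Of 15 genes of class I antigen processing 0 passed, with a median of 0.04. TAP1, which carries peptides into the endoplasmic reticulum, read 8.93 and 9.01 in control, 9.51 and 9.42 in adapted and 11.07 and 10.81 in shTSC2 cells. It stood at 0.49 against control (0.138) and was lower than in shTSC2 by 1.48 (-1.48, 0.00111). The 42 interferon-stimulated genes had 0 calls and a median of 0.003.

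**Figure D4:**
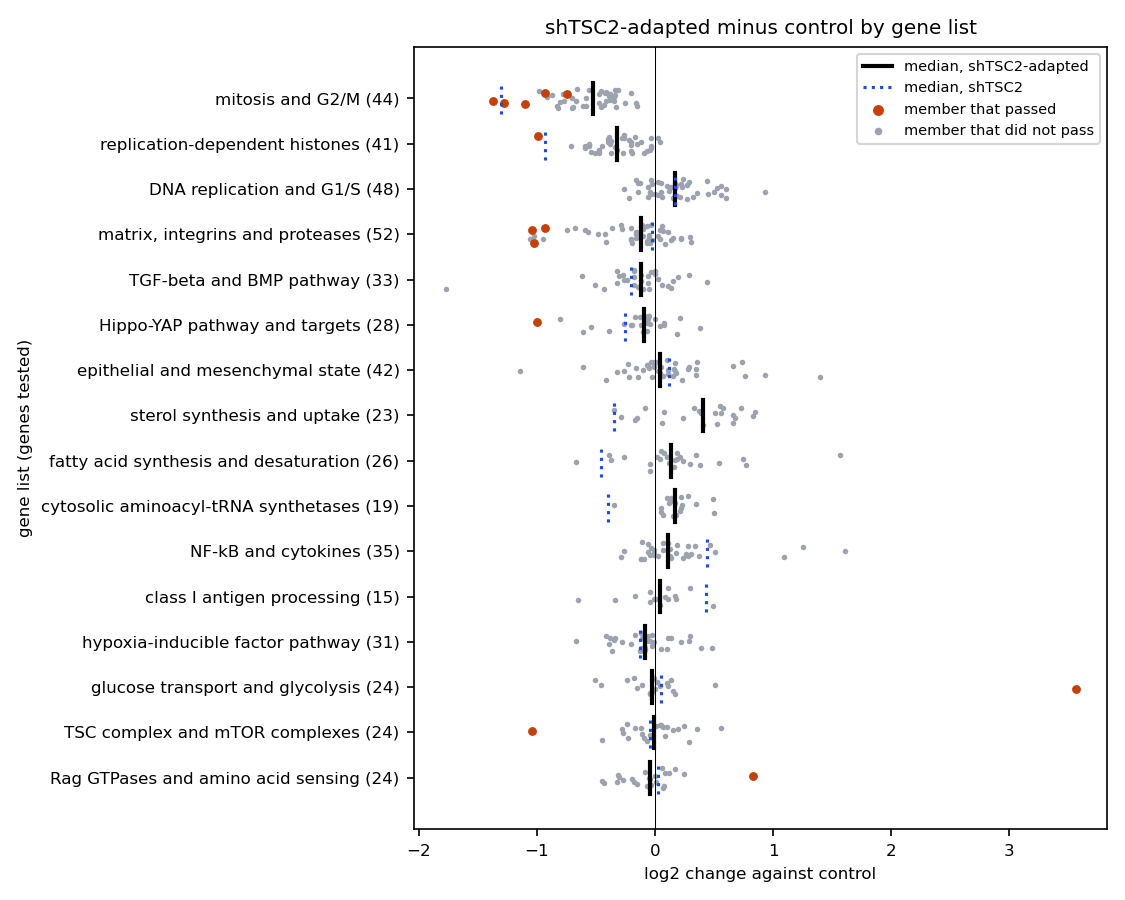
Change of each list member in log2 units (horizontal axis, shTSC2-adapted minus control) for 16 gene lists, with members that passed in red and others in grey, the list's median in adapted cells as a black bar and its median in shTSC2 as a dotted blue bar. The mitosis list lies wholly below 0 with a median of -0.52, while sterol, fatty acid and tRNA synthetase genes have medians of 0.41, 0.14 and 0.17.

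Across all lists, 7 of 35 pathway lists held a gene that passed, and 13 of the 48 genes were on a pathway list. The other 35 genes were on none of them. Pathway and marker lists together held 1077 distinct symbols that were tested, of 18417 genes. The lists were chosen with earlier results of these data known.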

How the data were processed

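Total RNA (100 ng per sample) from Du145 cells was labelled with biotin and hybridised to 6 arrays. The deposited table holds linear intensities, normalized by the authors with RMA per the submitters' processing notes. Not given in the sources used here are its version and the build. RMA makes the arrays' distributions alike, so a shift common to most genes would partly vanish. The log2 of each deposited intensity was used. Arrays have no read depth, and their number limits the precision; median intensities were 58.1 to 63.1 and the lowest 5.1 to 5.9.

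Of 33297 probe sets 19460 had 1 gene symbol in the platform annotation, 1754 had several and 12083 were unnamed here. Identifiers of 19429 matched RefSeq on GRCh38.p14. The probe set with the highest mean was kept per gene (18417 genes, 769 with several sets). Log2 values of all 6 arrays were fitted in R 4.3.3 with limma 3.58.1 (eBayes defaults; 3 residual and 4.39 prior degrees of freedom), two-sided. Gene lists are described by counts and medians, with no set test.

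Genes named were TSC2, TSC1, RHEB, MTOR and DDIT4, the 14 largest rises and falls that passed without overlap (rises filled up by unadjusted p; uncharacterised genes, which include CCDC symbols, small RNA genes and pseudogenes left out), up to 3 rises and falls per list, and the highest and lowest member of a list with none. The other 20 genes that passed, and list members, markers or SLC2A14 named beyond that rule, were chosen after their values were seen. The members and lists were chosen with earlier results of these data known. Tried as alternatives were median centring, quantile normalization, dim genes left out, every probe set, an intensity trend, array weights, only the 4 arrays compared, the replicate block and leaving out each array.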

Additional observations from a re-analysis of the deposited data

How the results depend on the processing

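The direction of all 48 genes held in every alternative in which they were tested. Their arrays did not overlap between the groups, so leaving out arrays, array weights or the block could not turn it. The count of genes that passed moved, and the cause was not tested. The count of 48 (10 higher, 38 lower) was 437 (143 and 294) with array weights, 248 (59 and 189) with only the 4 arrays compared, 121 (28 and 93) with dim genes left out and 90 (18 and 72) with median centring. Each of these held all of the 48 genes that were tested in it (36 with dim genes left out). Left out there, with a mean below the median over genes, were AOX1, BNC1, BTD, CILK1, DPYD, FAT4, FN1, ITGB3, KLB, TCP11L2, TIAM1 and TTLL1. The count was 48 with an intensity trend (44 shared), 49 with quantile normalization (45 shared) and 39 with every probe set (39 shared). At an adjusted p under 0.10 it was 269, and with a change of at least 2-fold 26. Mitosis members that fell, 5, were 22, 19, 14 and 11 with array weights, the 4 arrays, dim genes left out and median centring; matrix members, 3, were 7 with array weights and 5 with the 4 arrays. The number of pathway lists with a gene that passed, 7, was 24, 22, 18 and 12 in the same order.

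Leaving out 1 array gave 0 to 248 genes, 0 to 59 higher and 0 to 189 lower, 0 to 28 of the 28 named genes that passed, 0 to 22 lists, 0 to 19 mitosis and 0 to 5 matrix members. The 0 came without any one compared array (limma; 1081 to 2262 genes at an unadjusted p under 0.05), where 1 group holds a single array that is assumed to vary like the others. The 248 came without an shTSC2 array, which by construction equals the fit on 4 arrays. TSC2 stood at -1.08 to -1.01 without 1 array. Of the 28 named genes that passed against control, 13 differed from shTSC2, and without 1 array 8 to 12 did.

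With the replicate number as a block, 1 gene passed in limma (SLC2A3, adjusted p = 0.0342), 1 higher and 0 lower, 1 named gene, 1 list, 0 mitosis and 0 matrix members, with 2234 genes at an unadjusted p under 0.05; TSC2 stood at -1.04 (0.0515). The labels number the arrays without saying that a number marks a shared batch, and differences between replicates correlated at -0.19 between control and adapted, -0.10 between control and shTSC2 and 0.21 between the knockdown groups. The number was therefore not used to pair arrays, and whether it marks a shared batch was not tested.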

Other observations

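Lists not described above held no gene that passed in adapted versus control cells, and the ends of their ranges are given as values. Of 25 genes of the EGF receptor family and its ligands, 17 were below 0 (50.5% of all genes), with a median of -0.09. Both adapted arrays lay below both control arrays for 14 of them (24.1% of all genes). EREG, an EGF receptor ligand, was the highest, with 7.27 and 7.34 in control, 8.67 and 7.82 in adapted and 9.23 and 9.26 in shTSC2 cells. Its change was 0.94 (limma adjusted p = 0.157), and AXL was the lowest (-0.61, 0.0676). Among AP-1 and MAPK feedback genes MYEOV stood highest (1.30, 0.0676) and SPRY2, an inhibitor of receptor tyrosine kinase signalling, lowest (-0.61, 0.114). ATF3, a stress-induced transcription factor, read 5.82 and 5.77 in control and 7.38 and 6.42 in adapted cells (1.10, 0.146), and SLC7A11, the cystine transporter, stood at -0.63 (0.403). GADD45A, a growth arrest gene, read 8.01 and 7.91 in control and 9.30 and 8.32 in adapted cells (0.85, 0.270). ABCC2, an export pump, stood at 1.29 (0.157) and AKR1C3, an aldo-keto reductase, at -0.66 (0.314).

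In ATF3, GADD45A, EREG, ABCC2, ACSS2, CXCL8 and HMGCS1 the adapted array numbered 1 read higher than that numbered 2, and both lay above both control arrays. These genes were picked after their values were seen, and 21.8% of all genes had both adapted arrays above both control arrays. MS4A15 (7.44, then 8.09) and CDC25A (7.62, then 7.98) had the reverse order of adapted arrays. How many of all genes had either order was not counted. Cytosolic ribosomal proteins had 0 calls among 43 genes, with a median of -0.04, and values from -0.35 (RPL7A) to 0.36 (RPS24). Of the 43, 31 were below 0 (50.5% of all genes). Both adapted arrays lay below both control arrays for 20 (24.1% of all genes). Lysosome, V-ATPase and autophagy genes had 0 among 35 and a median of -0.005, with NPC1, a lysosomal cholesterol carrier, highest (0.53, 0.295). Wnt and Notch genes had 0 among 37 and a median of -0.06, with FZD2, a Wnt receptor, lowest (-0.74, 0.068). TNFRSF10A, a death receptor, stood at 0.61 (0.0727).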
